A study of Bubalus bubalis with 12 samples.

Results

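The circadian clock genes described here are CLOCK, ARNTL (also called BMAL1), PER1, PER2, PER3, CRY1, CRY2, NR1D1, NR1D2 and TEF. They were chosen by gene symbol, and each symbol matched 1 row of the expression table, so that they make up 10 of its 34037 genes. They were measured by RNA-seq in the ruminal wall of 12 adult dairy buffaloes of the Italian Mediterranean breed. In the control group, 6 animals received a total mixed ration (TMR), and in the treated group 6 animals received TMR with green feed, which was fresh ryegrass, as 30% of the diet. By the study's feed composition, the treated ration also held less corn silage, alfalfa hay and concentrate, more corn meal and no soybean meal. The study described both diets as isonitrogenous and isoenergetic. The trial lasted 60 days, and all animals were slaughtered together at its end. According to the study, feed was given each morning and each evening. Each animal gave 1 biopsy and 1 library of total RNA, so that each value belongs to a single moment in 1 animal. The hour of sampling was not given in the sources used here.

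In mammalian cells, CLOCK and ARNTL form a dimer that binds E-box elements and activates the genes of the PER and CRY proteins, which in turn repress that dimer. In a further loop, the nuclear receptors encoded by NR1D1 and NR1D2 (REV-ERB alpha and beta) repress ARNTL, while the related ROR receptors activate it. TEF belongs with DBP and HLF to the PAR bZIP factors, which carry the rhythm to output genes through D-box elements. In peripheral tissues the time of feeding is a known cue for this clock, and the transcripts of its arms peak at different hours, so that a level at a single time does not give the phase or the amplitude of a rhythm.

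Levels are given in FPKM, which corrects fragments for gene length and for the total counted in that animal. Between 10531245 and 12947982 fragments per animal were counted, with the fewest in control replicate 6. The tissue label was checked against markers. Of 8 markers of squamous epithelium, 7 were in the table under their symbols (KRT14 was not), and KRT5 was the most abundant with a mean of 1493 FPKM. Summed over the 7 genes, epithelial markers were at 2452 to 5180 FPKM per animal. The 6 smooth muscle markers summed to 4.67 to 31.5 FPKM, with TAGLN the most abundant, and the 5 fibroblast markers to 16.7 to 252 FPKM, with COL3A1 the most abundant. The 3 endothelial markers summed to 4.30 to 22.5 FPKM, the 4 immune markers to 7.53 to 20.8 FPKM and the 4 markers of neurons and glia to 2.12 to 15.7 FPKM, of which ELAVL4 was at 0 in all animals. In each animal, the epithelial markers were thus at far higher summed FPKM than those of any other cell type examined.

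Control replicate 6 and treated replicate 6 stood apart from the other 10 animals. Replicate numbers are those of the sample descriptions, while the sample titles carry other numbers for control replicate 6 and for all treated animals, and the labels do not say that a shared number links animals. The first principal component of all genes tested held 33.7% of the variance and placed them at 39.9 and 53.2, while the others lay between -19.4 and 3.15. KRT5, a basal keratin, was at 451 and 498 FPKM in these animals and at 1179 to 2372 FPKM in the others. PKP1, a desmosomal protein of epithelium, was at 117 and 63.5 FPKM against 256 to 399 FPKM. Not all epithelial markers were low in these animals, since DSG3, a desmosomal cadherin, was at 971 and 843 FPKM against 549.5 to 829.8 FPKM in the others. KRT15 was at 603 and 758 FPKM against 625 to 1211 FPKM, so that treated replicate 6 lay within the range of the others. Fold changes and pair correlations of the clock genes are therefore given with and without these animals.

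The comparison of the groups asks whether clock gene levels differed with green feed. Differences were tested with limma on log2(FPKM + 0.01) over 12633 genes that reached 42 TMM-scaled reads in at least 1 animal, and all 10 clock genes were among them. After limma p-values were adjusted by Benjamini-Hochberg across this whole set, 0 of 10 clock genes had an adjusted p-value below 0.05, as did 0% of all genes tested. At a nominal p-value below 0.05, which is the rule the study used, 0 of 10 clock genes were called, against 1.24% of all genes tested (0.792% higher with green feed and 0.451% lower). With no difference in any gene, about 1 in 20 would be expected at this threshold, so that the share over all genes was below that given by chance. With voom on the reads behind the FPKM, 0 clock genes were called by either rule, against 145 of 12633 genes tested by the nominal and 0 by the adjusted rule. In 0 of 10 clock genes did every treated animal lie on one side of every control animal, which was the case for 0.0554% of all genes tested. The mean log2 value was higher in the treated group for 4 clock genes and lower for 6. Their log2 fold changes had a median of -0.06 and extremes of -0.48 for PER3 and 0.21 for PER2. Over all genes tested, 51.3% had a higher mean log2 value in the treated group and the median was 0.0053. The median absolute log2 fold change was 0.11 for the clock genes and 0.09 for all genes tested. Standard errors ran from 0.13 for ARNTL to 0.66 for NR1D1, so that the size of difference that could have been seen was not the same for each gene. Since whole biopsies were sequenced, fewer cells of a type and less RNA per cell cannot be told apart in any of these levels.

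**Figure D1:**
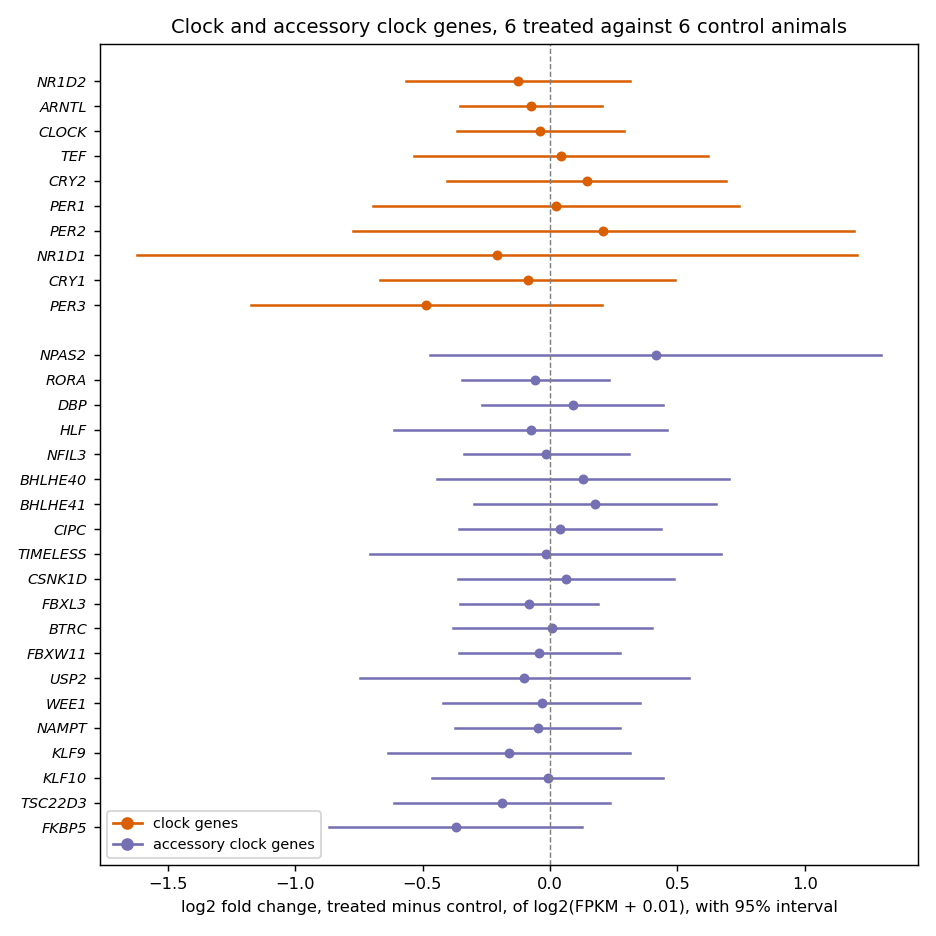
Log2 fold changes (treated minus control, on the scale of log2(FPKM + 0.01), horizontal axis) of the 10 clock genes and of 20 of the 21 accessory clock genes tested, with points for estimates and bars for 95% intervals from limma with 6 animals per group. Each bar crosses 0, and NR1D1 has the widest, from -1.62 to 1.20.

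The activators were the most even of the clock genes. CLOCK (gene 102414002), the partner of ARNTL in the activating dimer, ranged from 4.60 to 6.92 FPKM (median 6.13) among controls. In the treated group it ranged from 4.26 to 6.59 FPKM with a median of 5.86. The groups overlapped, and treated replicate 6 was the only treated animal below every control. The log2 fold change of CLOCK was -0.04 (SE 0.15, 95% interval -0.37 to 0.29; exact permutation p = 0.786, n = 6 per group). It was 0.047 without treated replicate 6, and its sign also changed without control replicate 2, 3 or 6. ARNTL (gene 102400190), which encodes the PAS domain protein BMAL1, ranged from 6.10 to 9.15 FPKM (median 7.99) among controls. In treated animals it ranged from 6.51 to 8.38 FPKM with a median of 7.51. All treated values lay within the range of the controls, whose ends were control replicate 6 at the bottom and control replicate 2 at the top. For ARNTL, the log2 fold change was -0.07 (SE 0.13, 95% interval -0.35 to 0.20; exact permutation p = 0.506, n = 6 per group). Its within-group SD on the log2 scale, 0.19, was at the 11th percentile of all genes tested, and that of CLOCK, 0.24, at the 24th.

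The period genes encode the PER proteins, which enter the nucleus with CRY proteins and repress the activators. PER1 (gene 102408674) ranged from 1.08 to 2.26 FPKM (median 1.72) among controls, and from 0.820 to 3.17 FPKM (median 1.90) among treated animals. The treated animals spread to both sides of the controls, with treated replicates 1, 2 and 3 above every control and treated replicates 5 and 6 below every control. PER1 had a log2 fold change of 0.02 (SE 0.33, 95% interval -0.69 to 0.74; exact permutation p = 0.952, n = 6 per group). Its sign changed without control replicate 4 or 6 or treated replicate 1, 2 or 3, down to -0.15 without treated replicate 1. With a smooth muscle and fibroblast score as a covariate it was -0.30. PER2 (gene 102407269) ranged from 0.837 to 1.82 FPKM (median 1.18) among controls, and from 0.495 to 4.74 FPKM (median 1.23) among treated animals. Its pattern was similarly wide, with treated replicates 2 and 3 above and treated replicates 1 and 6 below every control. For PER2, the log2 fold change was 0.21 (SE 0.46, 95% interval -0.77 to 1.19; exact permutation p = 0.710, n = 6 per group), and without treated replicate 2, which held the highest value, it was -0.15. The log2 ratio of the group means of PER2 was 0.54. PER3 (gene 102406354) ranged from 0.482 to 0.714 FPKM (median 0.545) among controls, and from 0.173 to 0.654 FPKM (median 0.436) among treated animals. Treated replicates 1, 2, 3 and 6 were below every control, while treated replicates 4 and 5 lay among them. The log2 fold change of PER3 was -0.48 (SE 0.32, 95% interval -1.17 to 0.20; exact permutation p = 0.0823, n = 6 per group), which had the smallest p-value of the clock genes. PER3 rested on 12 to 45 reads per animal, the lowest value being that of treated replicate 6, and without both animals numbered 6 its log2 fold change was -0.18.

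The cryptochromes are the partners of the PER proteins and the stronger repressors of the activating dimer. CRY1 (gene 102404708) ranged from 0.631 to 0.942 FPKM (median 0.871) among controls, and from 0.434 to 1.33 FPKM (median 0.780) among treated animals. Treated replicate 2 was above and treated replicate 1 below every control, and the other treated animals lay among the controls. For CRY1, the log2 fold change was -0.09 (SE 0.27, 95% interval -0.67 to 0.49; exact permutation p = 0.719, n = 6 per group), and without treated replicate 1 it was 0.07. CRY2 (gene 102396292) ranged from 1.30 to 3.07 FPKM (median 2.11) among controls, and from 1.62 to 3.65 FPKM (median 2.17) among treated animals. Only treated replicate 1 was outside the range of the controls, above it. CRY2 had a log2 fold change of 0.14 (SE 0.25, 95% interval -0.40 to 0.69; exact permutation p = 0.591, n = 6 per group), which was 0.0057 without treated replicate 1 and 0.014 without control replicate 4.

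The nuclear receptor genes NR1D1 and NR1D2 differed in level and in spread. NR1D2 (gene 102393684) was the most abundant clock gene, with 10.1 to 26.1 FPKM and a median of 14.7 in controls, and 10.6 to 18.2 FPKM and a median of 14.1 in treated animals. All treated animals lay within the range of the controls, the top of which was control replicate 6 alone. For NR1D2, the log2 fold change was -0.13 (SE 0.20, 95% interval -0.56 to 0.31; exact permutation p = 0.604, n = 6 per group), and without control replicate 6 it was 0.03. NR1D1 (gene 102407280) ranged from 0.473 to 1.33 FPKM (median 0.705) among controls, and from 0.0918 to 3.64 FPKM (median 0.817) among treated animals. Its extremes were both in the treated group, with replicate 1 above every control and replicates 2 and 5 below. The lowest value, that of treated replicate 5, rested on 3 reads, which counting error does not tell apart from 0, and the highest on 120 reads. The log2 fold change of NR1D1 was -0.21 (SE 0.66, 95% interval -1.62 to 1.20; exact permutation p = 0.788, n = 6 per group). Its direction depended on treated replicate 5 and on the scale, since it was 0.34 without that animal and from -0.69 to -0.05 without any other, and the log2 ratio of the group means was 0.43.

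TEF (gene 102396217), the PAR bZIP output factor, ranged from 3.04 to 7.78 FPKM (median 5.04) among controls. In the treated group it ranged from 2.46 to 7.88 FPKM with a median of 5.43. The groups overlapped almost completely, with control replicate 6 and treated replicate 6 the lowest and control replicate 1 and treated replicate 1 the highest of their groups. For TEF, the log2 fold change was 0.04 (SE 0.27, 95% interval -0.53 to 0.62; exact permutation p = 0.866, n = 6 per group). It was -0.10 without control replicate 6, -0.08 without treated replicate 1 and -0.0043 without treated replicate 2. With a smooth muscle and fibroblast score as a covariate it was -0.21.

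**Figure D2:**
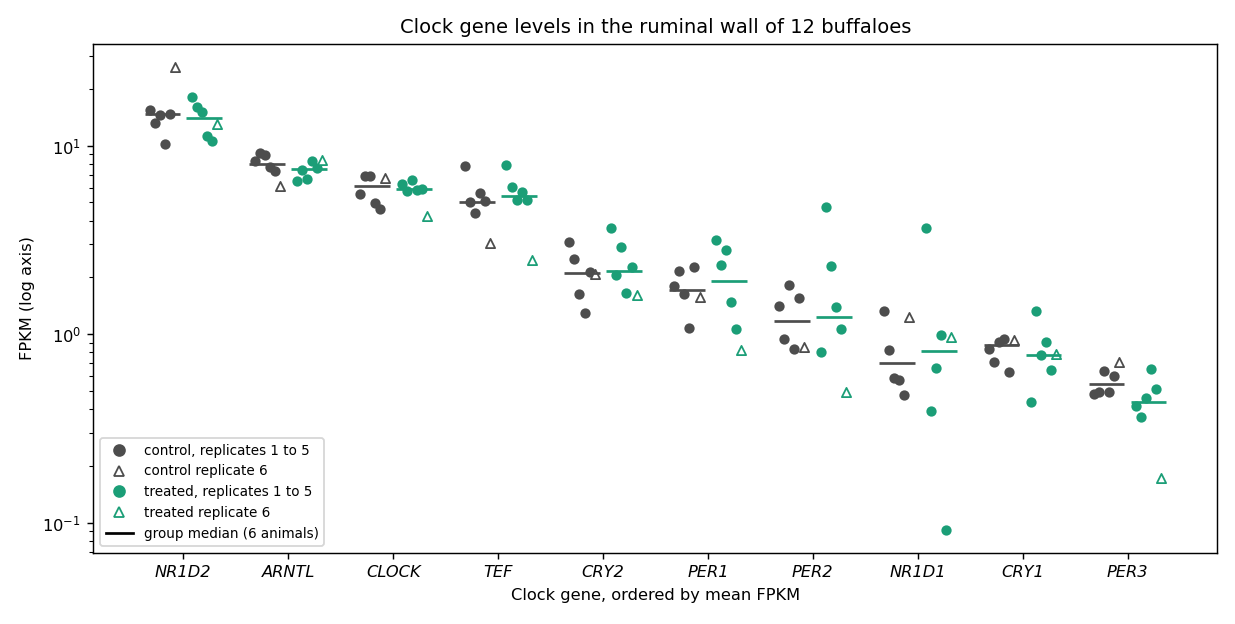
FPKM of the 10 clock genes in each animal (vertical log axis), with control animals in grey, treated animals in green, triangles for the animals numbered 6 and lines for group medians (n = 6). Genes run from NR1D2 with the highest mean, 14.9 FPKM, to PER3 with the lowest, 0.499 FPKM, and NR1D1 has the widest spread.

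On the FPKM scale, which allows levels to be compared between genes per length, the order of the means over 12 animals was NR1D2 (14.9), ARNTL (7.69), CLOCK (5.85), TEF (5.28), CRY2 (2.24), PER1 (1.85), PER2 (1.52), NR1D1 (0.981), CRY1 (0.820) and PER3 (0.499). Between NR1D2 and ARNTL the ranges did not overlap. TEF was above CRY2 in 12 of 12 animals and CRY1 above PER3 in 12 of 12 animals, although the ranges of each pair overlapped. ARNTL was above CLOCK in 11 of 12 animals, PER1 above PER2 in 10, CRY2 above PER1 in 9 and PER2 above NR1D1 in 9. CLOCK was above TEF in 7 and NR1D1 above CRY1 in 6 of 12 animals. The means of CLOCK and TEF, CRY2 and PER1, PER1 and PER2, PER2 and NR1D1, and NR1D1 and CRY1 differed by less than the larger SD over animals of each pair of neighbours. The activators and NR1D2 were thus at higher FPKM than the PER and CRY repressors.

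When both animals numbered 6 were left out, 0 of 10 clock genes had an adjusted or a nominal p-value below 0.05. Of all 12633 genes tested, 0 had an adjusted and 314 a nominal p-value below 0.05 in this setting, against 157 nominal calls over all 12 animals. The log2 fold change of CLOCK was then 0.09 and that of NR1D2 0.05, both of the opposite sign to the values over 12 animals. That of ARNTL was -0.18, of PER1 0.21, of PER2 0.41, of CRY1 -0.06, of CRY2 0.25, of NR1D1 -0.18 and of TEF 0.11, with 5 animals in each group.

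Animals of the same group differed among themselves. In 8 of 10 clock genes the within-group SD on the log2 scale was above the median of all genes tested. The median SD was 0.46 for the clock genes and 0.36 for all genes tested, and CLOCK and ARNTL were the clock genes below the latter. NR1D1 was at the 97th percentile of all genes tested, PER2 at the 93rd and PER1 at the 82nd, and the median number of reads per animal was 24.5 for NR1D1 and 88.5 for PER2. By mean FPKM, PER3 was at the 3rd percentile of all genes tested, CRY1 at the 7th, NR1D1 at the 9th and PER2 at the 15th. PER1 was at the 18th by mean FPKM, CRY2 at the 21st, TEF at the 40th and NR1D2 at the 68th. Whether other genes of such levels vary as much was not tested. Treated replicate 1 had the highest value of 4 clock genes (PER1, CRY2, NR1D1 and TEF) and the lowest of CRY1. Treated replicate 6 had the lowest value of 5 clock genes (CLOCK, PER1, PER2, PER3 and TEF). Treated replicate 2 had the highest PER2 and CRY1, and control replicate 6 the highest PER3 and NR1D2 and the lowest ARNTL. Whether these animals differed in the phase of their clocks was not tested, since each was sampled once.

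A list of 27 accessory clock genes was examined in the same way. Of these, 25 were in the table under their symbols and 21 were tested, while ARNTL2, RORB, CIART and KLF15 had too few reads. By the adjusted rule 0 of 21 and by the nominal rule 0 of 21 were called, and 7 had a higher and 14 a lower mean log2 value in the treated group. NPAS2, a paralog of CLOCK that can take its place in the dimer, averaged 1.70 ± 0.813 FPKM among controls and 2.17 ± 0.972 FPKM among treated animals (± SD of 6), and its log2 fold change was 0.41 with a 95% interval of -0.47 to 1.30. It was below CLOCK in mean level and ranged more widely, with its lowest value in control replicate 6. Of the ROR receptors, RORA was at 11.8 ± 2.13 FPKM among controls and 11.2 ± 1.29 FPKM among treated animals (± SD of 6). RORB had 1 to 15 reads per animal and ARNTL2, a paralog of ARNTL, at most 3.

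Among the PAR bZIP factors and repressors, DBP averaged 1.84 ± 0.281 FPKM among controls and 1.95 ± 0.241 FPKM among treated animals (± SD of 6), and its log2 fold change was 0.09 with a 95% interval of -0.26 to 0.44. DBP is a target of the activating dimer and a relative of TEF. Its within-group SD on the log2 scale, 0.20, was at the 13th percentile of all genes tested, and that of TEF, 0.51, at the 71st. Counting error alone gives an SD of 0.18 for DBP and 0.08 for TEF. TEF was lowest in control replicate 6 and treated replicate 6, at 3.04 and 2.46 FPKM, and its SD without them was not worked out. NFIL3, which binds the same D-box elements as a repressor, was at 9.01 ± 1.49 FPKM and 8.94 ± 1.57 FPKM in the control and treated groups (± SD of 6). BHLHE40, an E-box repressor, was the most abundant accessory gene, with 39.2 ± 10.6 FPKM among controls and 44.9 ± 18.4 FPKM among treated animals (± SD of 6). Its paralog BHLHE41 was at 3.85 ± 1.05 FPKM and 4.37 ± 1.37 FPKM in the control and treated groups (± SD of 6). CIART, a repressor of the activating dimer, was below the limit for testing and averaged 0.843 ± 0.440 FPKM among controls and 0.968 ± 0.305 FPKM among treated animals (± SD; exact permutation p = 0.459, n = 6 per group). The 6 output genes tested had a lower mean log2 value in the treated group, although the mean FPKM of KLF10 was higher (13.9 among controls and 14.4 among treated animals). FKBP5 had the lowest p-value of the accessory genes. It is a target of glucocorticoid signalling, and its log2 fold change was -0.37 (SE 0.23, 95% interval -0.87 to 0.13; exact permutation p = 0.171, n = 6 per group).

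Correlations between clock genes across the 12 animals were computed for all 45 pairs of log2 values. In 28 pairs Pearson r was positive and in 17 it was negative, with a median absolute r of 0.272. With Benjamini-Hochberg adjustment over the 45 pairs, 0 had an adjusted permutation p-value below 0.05 by Pearson r and 0 by Spearman rho, and the smallest by Pearson r was 0.416. At a nominal p-value below 0.05 there were 2 pairs by Pearson r and 4 by Spearman rho. PER1 and CRY2, both repressors, had an r of 0.716 (permutation p = 0.00925, adjusted p = 0.416) and a rho of 0.657 (permutation p = 0.0238, adjusted p = 0.445). The sign was the same within each group, with r of 0.724 in controls and 0.773 in treated animals. Over the 10 animals other than those numbered 6, r was 0.697 (permutation p = 0.0265, adjusted p = 0.412). Without treated replicates 1 and 6, which were farthest from the median of PER1, r was 0.579 (permutation p = 0.0802), so that the relation rests in part on them. Among the 12632 other genes tested, CRY2 ranked 747th from the highest r with PER1, and PER1 ranked 364th with CRY2. Both genes also varied with a squamous epithelium score, the mean of z-scored marker levels, PER1 with an r of 0.640 (permutation p = 0.0237, adjusted p = 0.187; rho 0.469, permutation p = 0.125, adjusted p = 0.398) and CRY2 with an r of 0.631 (permutation p = 0.0262, adjusted p = 0.187; rho 0.622, permutation p = 0.0344, adjusted p = 0.325). Without treated replicates 1 and 6 these r were 0.158 (permutation p = 0.659) and 0.335 (permutation p = 0.343), so that over all animals they rest in part on those animals. Among controls alone, r with this score was 0.512 for PER1 and 0.476 for CRY2. The part of the epithelium in the relation of PER1 and CRY2 was not tested.

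ARNTL and NR1D2, whose products are an activator and its repressor, had an r of -0.626 (permutation p = 0.0268, adjusted p = 0.466) and a rho of -0.608 (permutation p = 0.0395, adjusted p = 0.445). Within the groups r was -0.665 in controls and -0.742 in treated animals. Over the 10 animals other than those numbered 6 it was -0.374 (permutation p = 0.283, adjusted p = 0.582). Without control replicates 2 and 6 it was -0.405 (permutation p = 0.242), so that over all animals the relation rests in part on these controls. Both genes also varied with the number of counted fragments, ARNTL with an r of 0.664 (permutation p = 0.0137, adjusted p = 0.139; rho 0.517, permutation p = 0.0873, adjusted p = 0.398) and NR1D2 with an r of -0.626 (permutation p = 0.0417, adjusted p = 0.232; rho -0.336, permutation p = 0.285, adjusted p = 0.647). Without control replicates 3 and 6, which were farthest from the median depth, these r were 0.270 (permutation p = 0.449) and -0.198 (permutation p = 0.574). Among treated animals alone, r with depth was 0.563 for ARNTL and -0.0664 for NR1D2. Over all animals the relation of NR1D2 with depth thus rests on those controls, and that of ARNTL rests on them in part. The part of depth in the relation of ARNTL and NR1D2 was not tested. For that relation on the median ratio scale, r was -0.546 (permutation p = 0.0630) and the nominal call was lost. CRY1 and CRY2 had an r of -0.565 (permutation p = 0.0528, adjusted p = 0.466), which passed the nominal threshold on the TMM scale (r -0.653, permutation p = 0.0197) and on the median ratio scale (r -0.665, permutation p = 0.0173). ARNTL and NR1D1, which encodes the related repressor, had an r of -0.199, and the dimer partners CLOCK and ARNTL an r of -0.12. When both animals numbered 6 were left out, 1 of 45 pairs had an adjusted p-value below 0.05, PER1 and NR1D2, with an r of 0.894 (permutation p = 0.000560, adjusted p = 0.0252) over 10 animals. Over all 12 animals the same pair had an r of 0.481 (permutation p = 0.114, adjusted p = 0.466) and a rho of 0.685 (permutation p = 0.0181, adjusted p = 0.445). Control replicate 6, with the highest NR1D2 at 26.1 FPKM and a middle PER1 of 1.57 FPKM, lay away from the others. Leaving out these animals was chosen after seeing the data, and the pair is a description of the remaining 10.

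**Figure D3:**
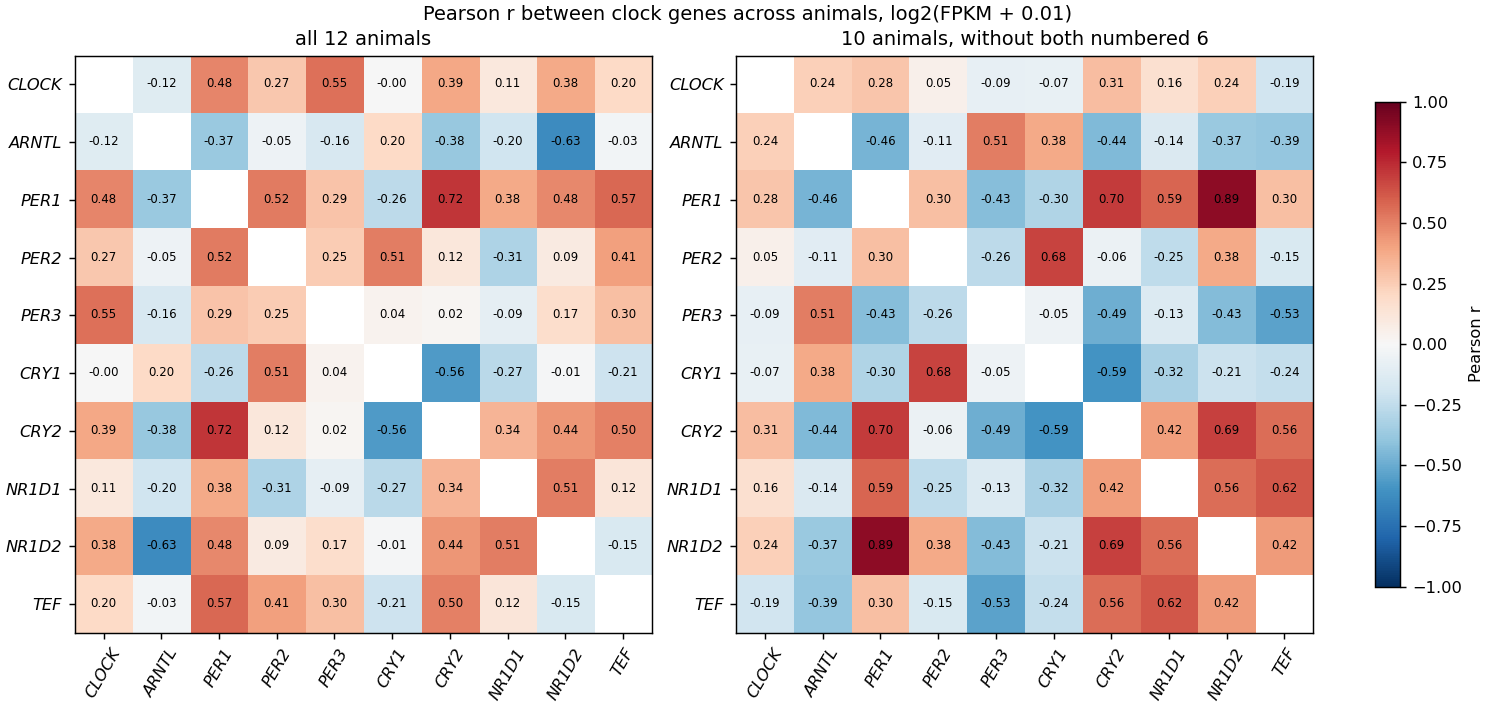
Pearson r between clock genes (rows and columns) on log2(FPKM + 0.01), over all 12 animals on the left and over 10 animals, without both numbered 6, on the right, with the colour scale from -1 to 1. PER1 and CRY2 have the highest r on the left (0.716), and PER1 and NR1D2 have the highest on the right (0.894).

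To show which genes had a pattern most like that of a clock gene, ARNTL and NR1D1 were compared with the other 12632 genes tested by Pearson r over 12 animals, as a description with no test. The highest r with ARNTL were those of CD93 (0.879), LOC112579955 (0.868), PLVAP (0.844), CD34 (0.841) and FAM198B (0.839). The lowest were those of TRIM24 (-0.870), RNF24 (-0.869), CCNB1IP1 (-0.849), ST7 (-0.846) and LOC112580482 (-0.793). CD93, PLVAP and CD34 are known as genes of endothelial cells. For NR1D1 the highest r were those of CDSN (0.891), CKMT2 (0.870), PGK1 (0.840), PRMT9 (0.830) and KLK12 (0.828), of which CDSN and KLK12 are genes of the cornified layer of epithelium or of its proteases. Among the 5 lowest were those of LOC102409010 (-0.893), LOC102409165 (-0.838), ZNF26 (-0.823) and LOC102413289 (-0.820). NR1D1 was highest in treated replicate 1 (120 reads) and lowest in treated replicate 5 (3 reads). How far its r rest on these animals was not tested. With the squamous epithelium score, NR1D1 had an r of 0.131 over 12 animals (permutation p = 0.684, adjusted p = 0.865). Its rho with that score was -0.0769 (permutation p = 0.819, adjusted p = 0.926). No clock or accessory clock gene was among the 5 highest and 5 lowest of either gene.

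Clock gene levels were also set against tissue scores of this kind, against counted fragments and against the first principal component, in 50 relations that were chosen after seeing the data. This family was computed in 4 forms, and whether any adjusted p-value fell below 0.05 depended on the form. For the first component only the 10 animals other than those numbered 6 were used in the form given here, since those animals formed a cluster of their own on it, and 0 of 50 relations then had an adjusted p-value below 0.05. TEF had an r of 0.815 with the squamous epithelium score (permutation p = 0.00152, adjusted p = 0.0760) and a rho of 0.580 (permutation p = 0.0519, adjusted p = 0.325). Over the 4 forms its adjusted p-value ran from 0.0304 to 0.0760, and it was below 0.05 in the 2 forms that took the first component over all 12 animals. In those 2 forms the relation of TEF with the first component was below 0.05 as well. Without treated replicates 1 and 6, r with the epithelium score was 0.581 (permutation p = 0.0802), so that the relation rests in part on them. TEF was at 3.04 and 2.46 FPKM in control replicate 6 and treated replicate 6, below all other animals, and over those other 10 animals its r with the first component was -0.556 (permutation p = 0.0987, adjusted p = 0.380; rho -0.467, permutation p = 0.179, adjusted p = 0.471). Over the same 10 animals, CRY2 had the strongest relation with the first component, with an r of -0.836 (permutation p = 0.00327, adjusted p = 0.0817) and a rho of -0.806 (permutation p = 0.00767, adjusted p = 0.192). Its r was -0.696 without control replicates 3 and 4 (exact permutation p = 0.0571). PER3 followed with an r of 0.75 (permutation p = 0.0139, adjusted p = 0.139) and a rho of 0.709 (permutation p = 0.0261, adjusted p = 0.325), and its r was 0.867 without the same animals (exact permutation p = 0.00479).

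ARNTL had an r of 0.753 with the score of the 3 endothelial markers PECAM1, VWF and CDH5 (permutation p = 0.00598, adjusted p = 0.0997) and a rho of 0.804 (permutation p = 0.00268, adjusted p = 0.134). That score was added because endothelial genes stood among those most like ARNTL, so that it is no independent test. Within the groups r was 0.773 in controls and 0.794 in treated animals, and it was 0.729 without control replicate 5 and treated replicate 1 (permutation p = 0.0161). The share of endothelium in each biopsy and its part in the level of ARNTL were not tested. Smooth muscle markers summed to 22.9 ± 8.47 FPKM among controls and 13.4 ± 7.42 FPKM among treated animals (± SD of 6; exact permutation p = 0.0606), and treated replicate 1, with the highest value of 4 clock genes, had the lowest sum at 4.67 FPKM. The part of this difference in the clock gene levels was not tested beyond the fit with a muscle and fibroblast score, in which 0 of 10 clock genes were called by either rule, against 330 of 12633 genes tested by the nominal rule and 0 by the adjusted rule.

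All 10 clock genes matched a protein-coding gene by identifier in the RefSeq annotation of the assembly NDDB_SH_1, which is not the assembly of the expression table, so that no coordinates are given. In that annotation 4 of them overlap another gene model. CLOCK overlaps LOC102413689, ARNTL overlaps LOC112579774, TEF overlaps LOC123333154, and CRY1 overlaps LOC123465652 and MTERF2. The authors counted reads by strand, and the strands of these models and the reads lost or gained where they overlap were not examined here.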

How the data were processed

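RNA-seq libraries of ruminal wall from 12 buffaloes were grouped by the labelled diet. According to the submitters' processing notes and the methods of the study, reads were checked with FastQC 0.11.5, trimmed with Trimmomatic 0.39, aligned to UOA_WB_1 with STAR 2.5.2b and counted by strand with featureCounts 2.0.0, and the authors tested counts with edgeR. The authors deposited FPKM for 34037 genes, and these values were used here. Of 16 columns, 4 matched no sample and were not used.

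Whole reads behind the FPKM were worked out from their steps for 100% of the 22972 genes above 0 (tolerance 0.001), and give the depth per animal. Counts of reads carry counting error only, and a value of 3 reads or fewer was treated as not told apart from 0. Differences were fitted with limma 3.58.1 (trend) in R 4.3.3 on log2(FPKM + 0.01), which understates changes of low genes. Single genes were tested by two-sided exact permutation over 924 assignments (smallest p-value 0.00216) and correlations over 10 or 12 animals with 100000 resamples, in Python 3.11.15 with numpy 2.4.6, scipy 1.17.1 and pandas 2.3.3. Plots used matplotlib 3.10.9. Methods were tested on simulated data.

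The members and lists were chosen with earlier results of these data known. Named genes are the 10 clock genes, accessory genes with a nominal p-value below 0.05 and 8 accessory genes given in any case, and the 5 genes with the highest and the 5 with the lowest r for ARNTL and NR1D1. FKBP5, and the accessory and marker genes named otherwise, were chosen after their values were seen. An accessory gene and a gene most unlike NR1D1 that this rule names are not reported here, but stay in the counts.

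Alternatives were another pseudocount (0.1 or 1), no filter beyond a value above 0, a filter of 0.1 FPKM reached by 6 animals or more, TMM and median ratio scales, robust empirical Bayes, voom on the reads, the replicate block, a smooth muscle and fibroblast score as a covariate, the ratio of means, and each animal left out. Pair correlations were also computed on values centred on the group means, on residuals after that score and by Spearman rho. Leaving out both animals numbered 6 was added after seeing the data. The relations of clock genes with tissue scores, depth and the first component were not in the design. They were set after seeing the data and computed in 4 forms. The first form had 40 relations with the first component over all 12 animals, and 2 adjusted p-values were below 0.05. The second had the endothelium score in place of the first component (40 relations, 0 below 0.05), the third had both over 12 animals (50 relations, 2 below 0.05), and the form reported took the first component over the other 10 animals (50 relations, 0 below 0.05).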

Additional observations from a re-analysis of the deposited data

Results flagged for a closer look

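Among 36 groups of 6 animals (18 clock and accessory genes in 2 diets), 3 held an animal whose gap to its nearest neighbour, on the FPKM scale, was a larger share of the range of the group than the 95% critical value of Dixon's test for 6 values. That share was 0.638 for CLOCK, 0.746 for NR1D1 and 0.669 for NR1D2. Chance flags about 1 in 20 groups, which is 1.8 of 36, if values are normally distributed, which was not tested. On the log2 scale, the largest gap at either end of the group was 0.686 of the range for CLOCK, 0.383 for NR1D1 and 0.556 for NR1D2, so that of these 3 groups only that of CLOCK was above the critical value. The other groups were not examined on that scale. CLOCK was at 4.26 FPKM in treated replicate 6, while the other treated animals were at 5.74 to 6.59 FPKM. NR1D1 was at 3.64 FPKM in treated replicate 1, with the others of that group at 0.0918 to 0.992 FPKM. NR1D2 was at 26.11 FPKM in control replicate 6, with the other controls at 10.15 to 15.44 FPKM. Control replicate 6 and treated replicate 6 are the animals that stood apart on the first principal component, and treated replicate 1 had the highest sum of epithelial markers, 5180 FPKM, and the lowest of smooth muscle markers, 4.67 FPKM. The part of tissue composition in these values was not tested.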

How the results depend on the processing

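No clock or accessory clock gene was called under any of the limma alternatives run, by the adjusted or the nominal rule. The log2 fold changes of ARNTL (-0.18 to -0.03) and PER3 (-0.62 to -0.14) kept their direction in all 24 settings. With the smooth muscle and fibroblast score as a covariate, the values of PER1 (-0.30), CRY1 (0.027), CRY2 (-0.019) and TEF (-0.21) changed sign. NR1D1 did so with a pseudocount of 1 (0.066) and as a ratio of means (0.43). Without both animals numbered 6, an alternative chosen after seeing the data, CLOCK (0.086) and NR1D2 (0.050) changed sign. With each animal left out in turn, log2 fold changes ran from -0.11 to 0.047 for CLOCK, from -0.15 to 0.24 for PER1, from -0.15 to 0.50 for PER2, from -0.24 to 0.075 for CRY1, from 0.0057 to 0.26 for CRY2, from -0.69 to 0.34 for NR1D1, from -0.24 to 0.033 for NR1D2 and from -0.10 to 0.26 for TEF. CLOCK changed sign without control replicate 2 (0.0097), 3 (0.010) or 6 (0.0014) or treated replicate 6 (0.047). PER1 did so without control replicate 4 (-0.11) or 6 (-0.00044) or treated replicate 1 (-0.15), 2 (-0.06) or 3 (-0.11). TEF did so without control replicate 6 (-0.10) or treated replicate 1 (-0.08) or 2 (-0.0043). The cause of these changes was not tested.

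Of the 45 pairs, 1 had an adjusted p-value below 0.05 without both animals numbered 6, and 0 in every other setting. Pairs with a nominal p-value below 0.05 numbered 2 over all animals, 6 after removal of the muscle and fibroblast score, 4 by Spearman rho, 4 without both animals numbered 6 and 2 to 4 with each animal left out in turn. The count was 4 without control replicate 1, 4, 5 or 6 or treated replicate 5. The cause was not tested. The relations with tissue scores gave 2 or 0 adjusted p-values below 0.05 in the 4 forms computed, 2 in each form with the first component over all 12 animals and 0 in the others.

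The labels do not say that a replicate number marks animals of a shared origin, and the block uses the numbers of the sample descriptions, which differ from those in the sample titles. Correlations of same-numbered deviations ran from -0.0131 to 0.415, with a mean of 0.213 over 6 pairs against -0.0392 for other numbers, and 8 of 12 animals correlated best with their own number. This is a hint of pairing from the data, but not every pair was above 0.1, and the animals were not treated as paired. With the replicate block, 0 of 10 clock genes and 0 of 21 accessory genes were called by either rule, while nominal calls among all genes tested went from 157 to 322. Log2 fold changes were the same, such as -0.48 for PER3. The SE went from 0.27 to 0.12 for TEF, from 0.66 to 0.46 for NR1D1, from 0.25 to 0.19 for CRY2 and from 0.32 to 0.36 for PER3.

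Each animal was sampled once at an hour not given, so that levels say nothing of rhythm. PER3 and NR1D1 rest on few reads, 12 to 45 and 3 to 120 per animal. Counting error worked out from the reads of each animal gives an SD of 0.27 and 0.37 on the log2 scale (root mean square), and 0.83 at the 3 reads of NR1D1 in treated replicate 5, against within-group SDs of 0.48 and 1.28. A p-value above the threshold does not show that the groups were alike, and the intervals reach a log2 fold change of 1.19 for PER2 and of -1.62 for NR1D1. Tissue composition varied among biopsies and was not separated from expression per cell.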
